A study of Danio rerio with 4 samples.

Results

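The genes described here encode the machinery that transcribes protein-coding genes with RNA polymerase II (Pol II). They were chosen by symbol: Pol II subunits, general transcription factors, TBP-associated factors (TAFs), Mediator and Integrator subunits, and elongation factors named SUPT, MLLT, AFF, ELL, CCNT, CDK9, PAF1 or CTR9. Of 101 gene IDs with such a symbol, 95 reached 1 RPKM (reads per kilobase of gene, relative to the read total) in at least 1 of the 2 tables and are the members. They were 95 of 13341 genes at that level.

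Per the labels' protocol, zebrafish embryos received mRNA for FLAG-tagged Ddx3xb, a DEAD-box RNA helicase, by injection, and RNA recovered on anti-FLAG beads was sequenced (RNA immunoprecipitation). The ages were 4 and 2 hours post-fertilization (hpf). Both had the wild-type genotype and 2 replicates, and the protocol gives the same injected mRNA for both. The 4 sample descriptions also read "control", which no source used here explains, so whether every library is a precipitate with the tagged bait is not settled. The deposited values are the authors' mean RPKM per gene, 1 table per age. No replicate values were used here, so no difference could be tested, and no SD or n of replicates stands behind any value. By the protocol the bait was made from injected mRNA, and no input RNA or precipitate from uninjected embryos is named among the samples. A value is therefore a level in the sequenced RNA and not an enrichment.

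Pol II is an enzyme of many subunits, some of which it shares with RNA polymerases I and III. General transcription factors and TFIID, built from TBP and TAFs, place it at promoters, and Mediator carries signals to it from DNA-bound activators. Elongation factors such as DSIF, P-TEFb and the super elongation complex govern its release from pausing, and Integrator cleaves nascent RNA and ends transcription of many short transcripts. The early zebrafish embryo starts with little transcription of its own, and the egg supplies most messenger RNA until the zygotic genome becomes active.

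Marker genes went against the age labels in direction. The tables are called 4 hpf and 2 hpf after their labels. Of 26 early zygotic genes at 1 RPKM or more, 25 (96.2%) lay 2-fold or more under the all-gene median in the 4 hpf table against the 2 hpf table. Over all genes this share was 21.2%. The RPKM of the 26 zygotic genes summed to 107 in the 4 hpf table and 469 in the 2 hpf table. The exception was WNT8A, at 8.15 RPKM in the 4 hpf table and 3.47 RPKM in the 2 hpf table. Of 33 oocyte, egg and germ plasm genes, 9 stood 2-fold or more over that median (27.3%, against 7.85% of all genes). None lay 2-fold below, against 21.2% of all genes. The share above was 12.3% for all genes with a mean of 5 to 20 RPKM and 24.5% for those over 20 RPKM. The egg and germ plasm genes summed to 1077 RPKM at 4 hpf and 377 RPKM at 2 hpf. Of 16 measured genes of differentiated tissues, tfa alone reached 1 RPKM (0.258 RPKM in the 4 hpf table and 2.104 RPKM in the 2 hpf table). The age labels of the 2 tables may be exchanged, which the sources used here do not settle. An exchange would turn the direction of every difference given here, all of which follow the labels. The bait transcript ddx3xb stood at 194 RPKM in the 4 hpf table and 97.9 RPKM in the 2 hpf table, and injected and embryonic copies cannot be separated in it.

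Most members were measured at low to middling levels at both labelled ages. Their median was 8.47 RPKM in the 4 hpf table and 4.18 RPKM in the 2 hpf table, against 4.59 RPKM at 4 hpf and 2.95 RPKM at 2 hpf over all 13341 genes. A level of 1 RPKM was reached by 86 members in both tables, by 7 in the 4 hpf table alone and by 2 in the 2 hpf table alone. The filter by itself thus fixed which table was higher for these 7 and 2 members, as for 1870 and 1785 of all genes. Levels of at least 10 RPKM were reached by 41 members in the 4 hpf table and 26 in the 2 hpf table. The summed RPKM of the members was 1659 in the 4 hpf table and 822 in the 2 hpf table. This was 0.298% of all RPKM at 4 hpf and 0.111% at 2 hpf. These shares are not shares of reads, because RPKM is divided by gene length and the 10 highest entries held 62.3% of the sum at 4 hpf and 82.1% at 2 hpf. In RNA recovered from lysates of whole embryos, fewer cells with a transcript, less of it per cell and a smaller bound part of it cannot be told apart.

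The 5 highest members of the 4 hpf table were MLLT1, GTF2F1, AFF4, TAF3 and MED13, and together held 37.0% of the members' summed RPKM there. In the 2 hpf table they were GTF2F1, AFF4, SUPT16H, TAF3 and ELL2, with 27.8%. The rule also set the lower edge of the group. The 6 genes that matched by symbol but stayed under 1 RPKM in both tables were AFF2, aff3, MLLT11, MED18, POLR2H and INTS5. Of these, POLR2H came closest, at 0.511 RPKM in the 4 hpf table and 0.931 RPKM in the 2 hpf table, and INTS5 had 0.801 RPKM at 4 hpf and 0.0514 RPKM at 2 hpf. Just inside the edge lay GTF2IRD1, at 0.509 RPKM at 4 hpf and 1.05 RPKM at 2 hpf, and MED25, at 0.810 RPKM at 4 hpf and 1.39 RPKM at 2 hpf.

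**Figure D1:**
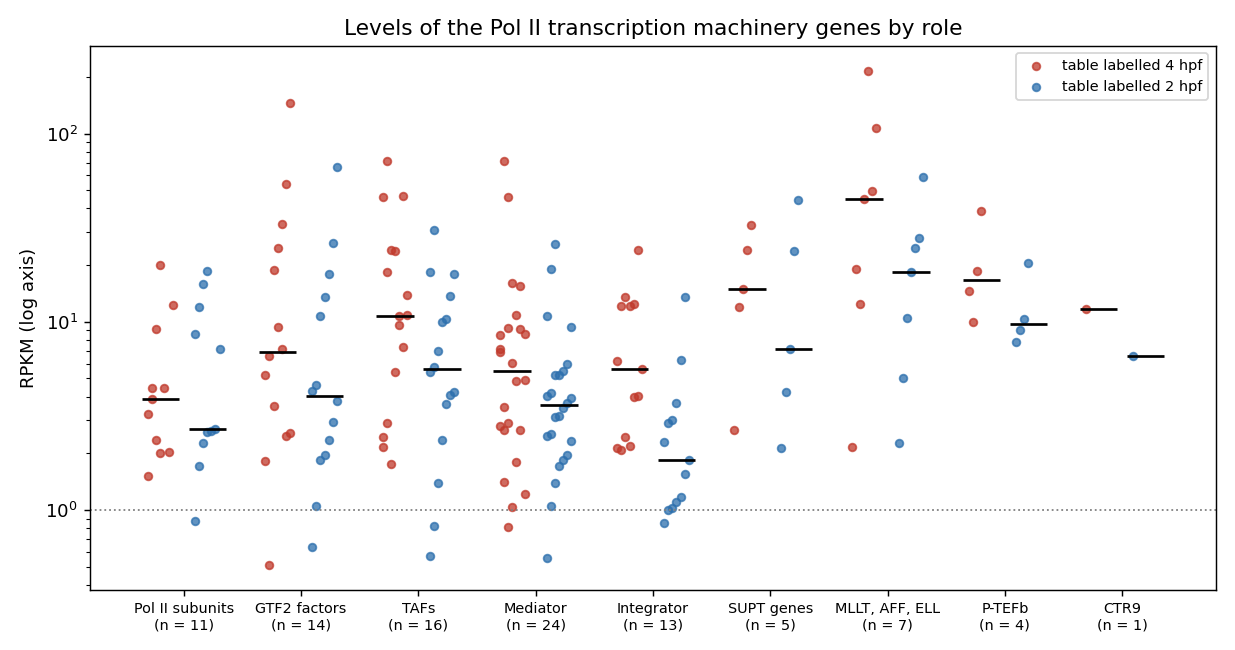
RPKM (log axis) of the 95 members by role in the table labelled 4 hpf (red, left) and the table labelled 2 hpf (blue, right). Each point is the authors' mean for 1 gene, bars are medians over genes and the dotted line marks 1 RPKM. The MLLT, AFF and ELL genes have the highest medians of the groups with at least 5 members, at 44.8 RPKM at 4 hpf and 18.3 RPKM at 2 hpf.

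Between the labelled ages the members were 2-fold higher about as often as other genes, and 2-fold lower less often. The difference was taken as log2(RPKM + 1) in the 4 hpf table minus that in the 2 hpf table. On this scale low genes show less than their full difference. It was at least 1, or 2-fold higher, for 31 of 95 members (32.6%), where 33.0% of all genes tested were so. It was at most -1 for 4 members (4.21%), against 10.9% of all genes. The median difference was 0.78 over the members, 0.66 over all genes tested and 0.70 over the 10330 of them that have a symbol.

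The sign of such differences followed the scaling of the tables. The median over all genes was 0.66 with RPKM as deposited, 0.96 with both tables brought to one sum and 0.07 when the 100 highest genes were left out of that sum. It was 0.22 with quantiles made equal and -0.08 with the median ratio set equal. Single genes and groups are therefore given by a relative difference, the difference minus 0.66. Under another setting, that setting's own all-gene median was subtracted. Scaling by a constant factor per table then cancels apart from the pseudocount, so agreement across such scalings carries little weight. A gene 2-fold above or below the all-gene median has a relative difference of at least 1 or at most -1. By this measure 8 members (8.42%) lay 2-fold above, against 7.85% of all genes, and 12 members (12.6%) lay 2-fold below, against 21.2%. Of the 12, GTF2IRD1 and MED25 reached 1 RPKM in the 2 hpf table alone, so only a negative sign was possible for them.

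Level entered these counts. Among the 15 members with a mean over both tables above 20 RPKM, 3 lay 2-fold above (20%), as did 24.5% of the 1828 genes at that level. Among the 39 members between 5 and 20 RPKM, 5 lay above and 4 below (12.8% and 10.3%), against 12.3% and 12.1% of 3975 genes. None of the 41 members under 5 RPKM lay 2-fold above and 7 lay 2-fold below (17.1%), against 1.45% and 28.9% of 7538 genes. The members' share 2-fold below the median was thus smaller than that of all genes under 5 RPKM. Their median relative difference was -0.23 under 5 RPKM, 0.12 between 5 and 20 RPKM and 0.35 above 20 RPKM, against -0.24, 0.32 and 0.51 over all genes at those levels. The relative difference was therefore higher at higher levels in both, and the members' medians lay lower than those of all genes from 5 RPKM upwards. Part of this rise with level is built into the measure. At low RPKM the added 1 shrinks a difference towards 0, and subtracting the all-gene median of 0.66 makes a small difference negative. INTS6L, for example, had 2.19 RPKM at 4 hpf and 1.105 RPKM at 2 hpf, a ratio of 1.99. Its difference was 0.60 and its relative difference -0.06.

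**Figure D2:**
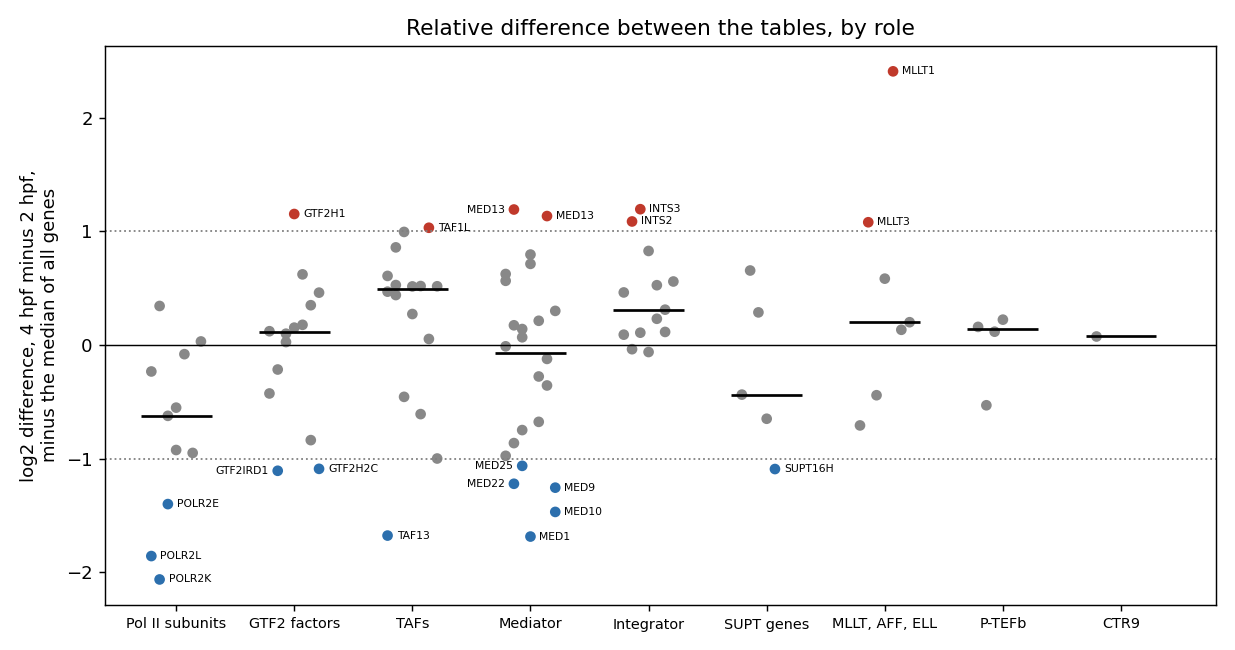
Relative difference (log2, table labelled 4 hpf minus table labelled 2 hpf, less the all-gene median) of each member by role. Bars are group medians, dotted lines mark 2-fold, and coloured points with symbols lie beyond it, 8 above and 12 below. Pol II subunits have the lowest group median, at -0.62, and TAFs the highest, at 0.49.

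Subunits of Pol II itself had a median relative difference of -0.62. Of 11 measured, none stood 2-fold over the all-gene median, against 7.85% of all genes. Below it by 2-fold lay 3 (27.3%), near the 21.2% of all genes and the 28.9% of genes under 5 RPKM. Their median level was 3.90 RPKM in the 4 hpf table and 2.69 RPKM in the 2 hpf table. The largest subunits, POLR2A and POLR2B, are not among the symbols matched and were not analysed here.

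The 3 subunit genes 2-fold below the median encode parts common to all nuclear RNA polymerases. POLR2K was at 3.90 RPKM in the 4 hpf table and 11.9 RPKM in the 2 hpf table, rank 7192 of all genes at 4 hpf and rank 2080 at 2 hpf. Its relative difference of -2.06 was the lowest of all 95 members. POLR2L was at 3.22 RPKM in the 4 hpf table and 8.66 RPKM in the 2 hpf table, a relative difference of -1.86.

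The symbol POLR2E sits on a pair of IDs with unlike values. ENSDARG00000026183 was at 9.13 RPKM in the 4 hpf table and 15.9 RPKM in the 2 hpf table (-1.40). The lower copy, ENSDARG00000074274, was at 1.52 RPKM at 4 hpf and 0.872 RPKM at 2 hpf (-0.23). Reads that fit both copies may have been divided between them. The shared subunit with the highest level was POLR2F, nearly level at 20.1 RPKM in the 4 hpf table and 18.5 RPKM in the 2 hpf table (-0.55).

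Subunits found in Pol II alone lay closer to the all-gene median. This division of the subunits into shared and specific was made after the values were seen. Over the 6 specific entries the median relative difference was -0.35, against -1.40 over the 5 shared entries, with no test. POLR2C and POLR2G, of which POLR2G is part of the stalk that meets emerging RNA, had 2.01 and 2.02 RPKM in the 4 hpf table, against 2.61 and 2.69 RPKM in the 2 hpf table. POLR2D, the other stalk subunit, had 4.43 RPKM at 4 hpf and 2.62 RPKM at 2 hpf (-0.08), and POLR2I had 2.35 RPKM at 4 hpf and 2.26 RPKM at 2 hpf (-0.62). POLR2J3, a human-style symbol for an entry of the POLR2J type, had 12.2 RPKM in the 4 hpf table and 7.17 RPKM in the 2 hpf table (0.03). The entry polr2m, of the Pol II-bound protein Gdown1, had 4.43 RPKM at 4 hpf and 1.70 RPKM at 2 hpf (0.34), the highest relative difference among the polymerase entries.

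General transcription factors spanned a wide range of levels and lay close to other genes in their difference. Of 14 entries, 1 stood 2-fold over the all-gene median (7.14%, against 7.85% of all genes) and 2 lay 2-fold below (14.3%, against 21.2%). The 2 below were GTF2H2C and GTF2IRD1, and GTF2IRD1 fits the symbol pattern but is no general factor. The filter fixed the sign of GTF2IRD1, which reached 1 RPKM in the 2 hpf table alone. The median relative difference of the 14 entries was 0.11. That sign was negative under 5 of the 8 alternative settings for scaling, pseudocount and filter. GTF2F1, the large subunit of TFIIF, which travels with the polymerase, was the most abundant at 146 RPKM in the 4 hpf table and 66.6 RPKM in the 2 hpf table (0.46). It ranked 177 among all genes at 4 hpf and 225 at 2 hpf.

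Its partner in TFIIF, GTF2F2, was lower and sits on a pair of IDs. ENSDARG00000069910 had 18.9 RPKM in the 4 hpf table and 10.7 RPKM in the 2 hpf table, and ENSDARG00000006816 had 7.18 RPKM at 4 hpf and 2.36 RPKM at 2 hpf. Both thus had a higher level in the 4 hpf table, with relative differences of 0.10 and 0.62. In both tables the level of GTF2F1 exceeded the sum of both GTF2F2 entries.

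TFIIA, which steadies TBP on DNA, was also well represented. GTF2A1 had 53.7 RPKM in the 4 hpf table and 26.1 RPKM in the 2 hpf table (0.35), and GTF2A2 had 33.0 RPKM at 4 hpf and 17.97 RPKM at 2 hpf (0.18). GTF2A1L, a germ cell relative of GTF2A1 in mammals, was far lower at 1.82 RPKM at 4 hpf and 0.636 RPKM at 2 hpf. In TFIIE, which recruits TFIIH, GTF2E2 had 24.5 RPKM at 4 hpf and 13.5 RPKM at 2 hpf (0.15), and GTF2E1 had 5.24 RPKM at 4 hpf and 4.29 RPKM at 2 hpf (-0.43).

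TFIIH, which opens DNA at the start site and also serves nucleotide excision repair, held the highest relative difference of this group and one of the lowest. GTF2H1 had 9.38 RPKM in the 4 hpf table and 1.95 RPKM in the 2 hpf table, a relative difference of 1.15. GTF2H2C had 2.55 RPKM at 4 hpf and 3.78 RPKM at 2 hpf (-1.09), and GTF2H5, the smallest TFIIH subunit, had 2.47 RPKM at 4 hpf and 2.92 RPKM at 2 hpf (-0.84). Between them lay GTF2H3, with 6.62 RPKM at 4 hpf and 4.59 RPKM at 2 hpf (-0.22), and GTF2H4, with 3.57 RPKM at 4 hpf and 1.84 RPKM at 2 hpf (0.03). The 5 TFIIH entries thus lay on both sides of the all-gene median. GTF2IRD1, a DNA-binding protein whose symbol fits the pattern though it is no general factor, was near the floor (0.509 RPKM at 4 hpf and 1.05 RPKM at 2 hpf, -1.11).

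TAFs leaned towards the 4 hpf table. Of 16 entries, 12 had a positive relative difference, as had 6670 of 13341 genes, a share that subtracting the median sets. The TAF median of 0.49 was positive under all 8 alternative settings (0.16 to 1.11). Without subtraction of the median, 10 were at least 2-fold higher (62.5%, against 33.0% of all genes) and 1 at least 2-fold lower (6.25%, against 10.9%). These counts became 12 and 0 with equal sums and 0 and 2 with equal median ratios, where the all-gene median was 0.96 and -0.08. Of the 10 as deposited, taf4b and TAF8 reached 1 RPKM in the 4 hpf table alone, so the filter fixed their sign. Measured against the all-gene median, 1 of the 16 TAF entries lay 2-fold above and 1 lay 2-fold below (6.25% each, against 7.85% and 21.2% of all genes). Their median level of 10.8 RPKM in the 4 hpf table and 5.59 RPKM in the 2 hpf table is one at which other genes also had a positive median, as given above for genes between 5 and 20 RPKM.

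TFIID subunits made up most of them. TAF3, whose protein reads a histone mark of active promoters, was the most abundant at 71.8 RPKM in the 4 hpf table and 30.9 RPKM in the 2 hpf table (0.53). TAF1L is a human-style symbol for an entry of the type of TAF1, the largest TFIID subunit. It had 46.7 RPKM at 4 hpf and 13.7 RPKM at 2 hpf (1.03), the highest relative difference among TAFs. TAF5, a scaffold of TFIID, had 46.0 RPKM at 4 hpf and 18.5 RPKM at 2 hpf (0.61), and TAF10, a histone-fold subunit shared with SAGA, had 23.8 RPKM at 4 hpf and 9.93 RPKM at 2 hpf (0.52).

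The remaining TFIID entries had lower levels. The paralogs taf4a and taf4b had 10.8 and 2.90 RPKM in the 4 hpf table, against 4.21 and 0.818 RPKM in the 2 hpf table. TAF8 had 2.44 RPKM in the 4 hpf table and 0.568 RPKM in the 2 hpf table (0.47), and TAF9 had 7.35 RPKM at 4 hpf and 4.08 RPKM at 2 hpf (0.05). TAF7 was nearly level at 10.8 RPKM at 4 hpf and 10.3 RPKM at 2 hpf (-0.61), as was TAF11L11 at 1.76 RPKM at 4 hpf and 1.39 RPKM at 2 hpf (-0.46). TAF13, a histone-fold subunit of TFIID, went the other way at 2.162 RPKM in the 4 hpf table and 5.39 RPKM in the 2 hpf table (-1.68), the lowest of the TAFs.

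TAF symbols also cover proteins outside TFIID. TAF5L and TAF6L, parts of the coactivator SAGA, had 5.41 and 18.5 RPKM in the 4 hpf table, against 2.35 and 5.78 RPKM in the 2 hpf table. TAF1A and TAF1B, which serve RNA polymerase I, had 24.2 and 9.57 RPKM in the 4 hpf table and 6.97 and 3.66 RPKM in the 2 hpf table. All 4 had a positive relative difference, between 0.27 and 0.996. The gene taf15, of an RNA-binding protein, had 13.9 RPKM in the 4 hpf table and 17.9 RPKM in the 2 hpf table (-0.998), just short of 2-fold below the median.

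Mediator entries lay on both sides of the all-gene median. Of 24 entries, 2 stood 2-fold over it (8.33%) and 5 lay 2-fold below (20.8%), shares near the 7.85% and 21.2% of all genes. Of the 5, MED25 reached 1 RPKM in the 2 hpf table alone, so the filter fixed its sign. The entries named below are therefore single values and not a pattern of the complex. The median relative difference of -0.07 over the 24 entries was positive under 2 alternative settings, a pseudocount of 5 and no filter. Levels ran from 0.810 to 71.5 RPKM in the 4 hpf table and from 0.557 to 25.9 RPKM in the 2 hpf table.

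Both entries 2-fold above the median carry the symbol MED13, a subunit of the kinase module that docks on Mediator and holds it off the polymerase. ENSDARG00000053884 had 71.5 RPKM in the 4 hpf table and 19.0 RPKM in the 2 hpf table (1.19), and ENSDARG00000003910 had 15.4 RPKM at 4 hpf and 3.72 RPKM at 2 hpf (1.14). The kinase of that module, CDK8, had 45.7 RPKM at 4 hpf and 24.2 RPKM at 2 hpf (0.23), and its cyclin CCNC had 1.61 RPKM at 4 hpf and 1.37 RPKM at 2 hpf (-0.53). Neither of these lay 2-fold from the median.

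The middle module, which with the head contacts the polymerase, held 3 of the 5 entries 2-fold below the all-gene median. These were 37.5% of its 8 entries, against 21.2% of all genes and 28.9% of genes under 5 RPKM. MED1, the main contact of nuclear receptors, had 1.04 RPKM in the 4 hpf table and 3.14 RPKM in the 2 hpf table, a relative difference of -1.69. MED10 had 4.92 RPKM at 4 hpf and 9.35 RPKM at 2 hpf (-1.47), and MED9 had 1.21 RPKM at 4 hpf and 2.33 RPKM at 2 hpf (-1.25). MED31, highly conserved from yeast, had 8.47 RPKM at 4 hpf and 10.8 RPKM at 2 hpf (-0.975), just short of 2-fold below. Against these stood med1l, a relative of MED1, with 6.06 RPKM in the 4 hpf table and 1.72 RPKM in the 2 hpf table (0.71).

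Over the 8 entries of the middle module the median relative difference was -0.86. It was -0.07 over 4 entries of the head and 0.03 over 4 of the tail. Modules were assigned from general knowledge after the values were seen, and entries whose module is placed differently between species were left out. In the head, MED17, a scaffold subunit, had 7.14 RPKM in the 4 hpf table and 2.48 RPKM in the 2 hpf table (0.57). MED22 had 1.41 RPKM at 4 hpf and 2.55 RPKM at 2 hpf (-1.22). In the tail, MED16 had 2.80 RPKM at 4 hpf and 0.557 RPKM at 2 hpf (0.63), and MED25 had 0.810 RPKM at 4 hpf and 1.39 RPKM at 2 hpf (-1.06).

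The remaining Mediator entries included some of the most abundant. MED19 on ENSDARG00000037392 had 45.9 RPKM in the 4 hpf table and 25.9 RPKM in the 2 hpf table (0.14), and its second entry had 8.66 RPKM at 4 hpf and 3.96 RPKM at 2 hpf (0.30). MED14, the backbone that joins the modules, had 16.02 RPKM at 4 hpf and 5.19 RPKM at 2 hpf (0.80). MED6, counted above with the head, had 10.8 RPKM at 4 hpf and 5.45 RPKM at 2 hpf (0.21). MED4, counted with the middle module, had 9.27 RPKM at 4 hpf and 5.19 RPKM at 2 hpf (0.07). The other Mediator entries had relative differences between -0.86 and 0.17.

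**Figure D3:**
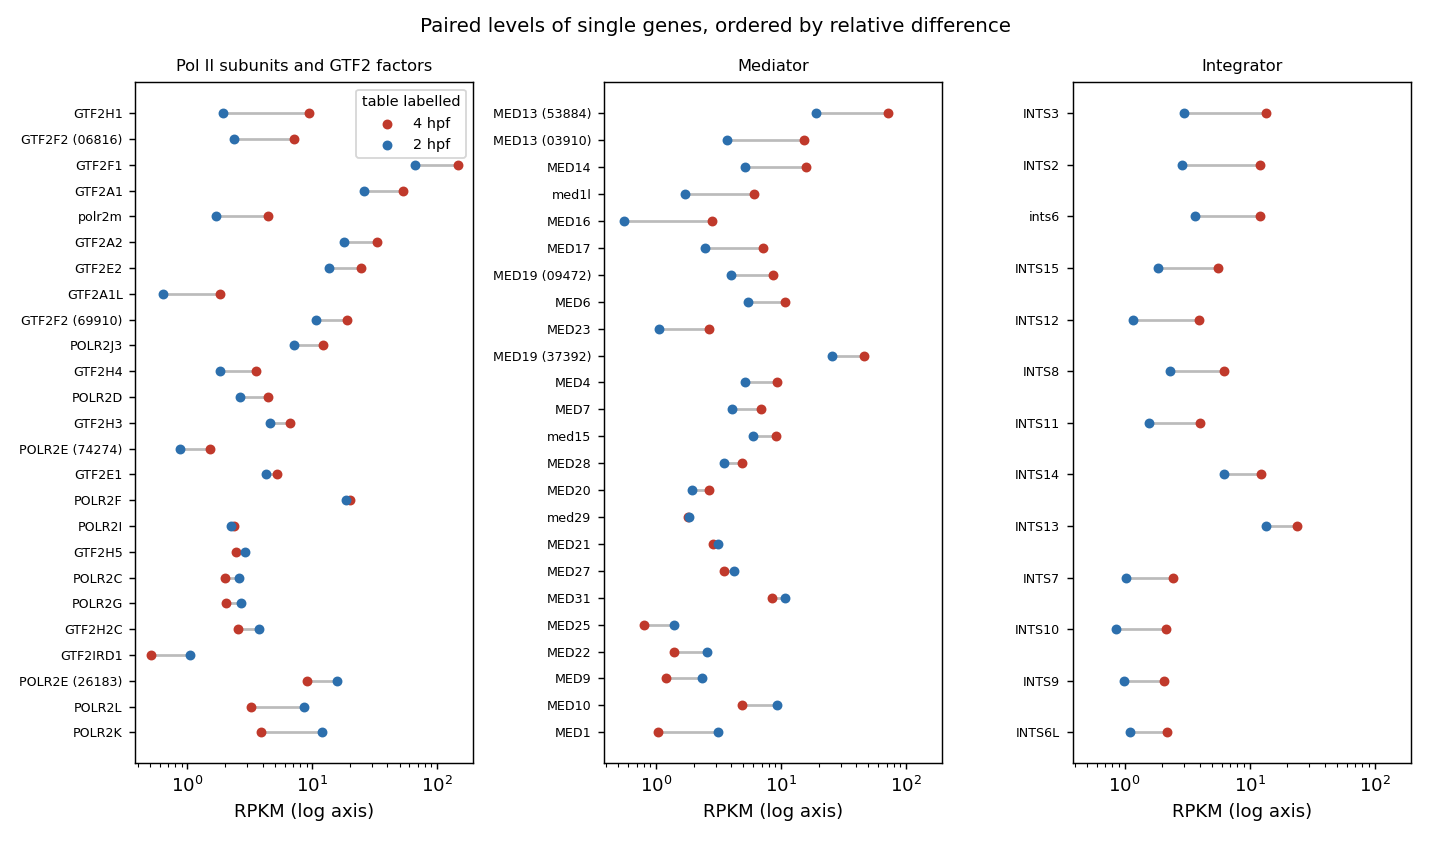
RPKM (log axis) of each Pol II subunit, general factor, Mediator and Integrator gene in the table labelled 4 hpf (red) and the table labelled 2 hpf (blue), ordered by relative difference with the highest on top. Symbols on several IDs carry the last digits of the ID. As deposited, all 13 Integrator genes have the red point on the right, which the 1 RPKM filter fixed for INTS9 and INTS10. It lies on the left for 9 of the 24 Mediator genes, against 3605 of all 13341 genes. With equal median ratios, 10 of the 13 Integrator genes and 8 of the 24 Mediator genes would have it on the right.

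Integrator entries were all higher in the 4 hpf table with RPKM as deposited. This held for all 13, where 9736 of all 13341 genes had a positive difference. With equal median ratios it held for 10 of the 13. INTS9 and INTS10 reached 1 RPKM in the 4 hpf table alone, so for these 2 the filter fixed the sign as deposited. At least 2-fold higher on the log2(RPKM + 1) scale were 6 entries as deposited (46.2%, against 33.0% of all genes) and none with equal median ratios. A positive relative difference was found for 11, against 6670 of 13341 genes, a share that subtracting the median sets. The median relative difference of 0.31 was positive under all 8 alternative settings (0.20 to 0.89). Levels were low, with a median of 5.64 RPKM in the 4 hpf table and 1.85 RPKM in the 2 hpf table.

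INTS3, which also serves a complex that binds single-stranded DNA, and INTS2 stood 2-fold over the all-gene median. These were 15.4% of the Integrator entries, against 7.85% of all genes. INTS3 had 13.5 RPKM in the 4 hpf table and 2.99 RPKM in the 2 hpf table (1.20). INTS2 had 12.1 RPKM at 4 hpf and 2.89 RPKM at 2 hpf (1.09). The gene ints6, of the phosphatase module, followed with 12.2 RPKM at 4 hpf and 3.69 RPKM at 2 hpf (0.83), while its relative INTS6L had 2.19 RPKM at 4 hpf and 1.105 RPKM at 2 hpf (-0.06).

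INTS11, the endonuclease that cuts nascent RNA, had 4.02 RPKM in the 4 hpf table and 1.56 RPKM in the 2 hpf table (0.31). Its partner INTS9 had 2.08 RPKM at 4 hpf and 0.997 RPKM at 2 hpf (-0.04). The most abundant entry was INTS13, at 24.01 RPKM at 4 hpf and 13.6 RPKM at 2 hpf (0.12), and INTS14, which binds INTS13, had 12.4 RPKM at 4 hpf and 6.23 RPKM at 2 hpf (0.23). INTS8, INTS12 and INTS15 had relative differences between 0.46 and 0.56, and INTS7 and INTS10 lay at 0.11 and 0.09.

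The super elongation complex and its relatives held the widest difference of the machinery. MLLT1 on ENSDARG00000043185, which encodes ENL, a reader of acetylated histones, had 216 RPKM in the 4 hpf table and 24.8 RPKM in the 2 hpf table. Its rank among all genes was 93 in the 4 hpf table and 866 in the 2 hpf table, and its relative difference was 2.41. This entry alone held 13.0% of the members' summed RPKM in the 4 hpf table and 3.02% in the 2 hpf table.

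The other ID with the symbol MLLT1, ENSDARG00000031709, did not share this. It had 2.158 RPKM in the 4 hpf table and 2.26 RPKM in the 2 hpf table (-0.71). MLLT3, the close relative AF9, had 19.2 RPKM at 4 hpf and 5.02 RPKM at 2 hpf (1.08). MLLT10, the gene of a partner of the histone methyltransferase DOT1L, had 12.4 RPKM at 4 hpf and 10.5 RPKM at 2 hpf (-0.44).

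The scaffold and the ELL factors were abundant and near the all-gene median. AFF4, the scaffold of the complex, had 107 RPKM in the 4 hpf table and 58.6 RPKM in the 2 hpf table (0.20), ranking 283 at 4 hpf and 273 at 2 hpf. ELL2 had 49.3 RPKM at 4 hpf and 28.0 RPKM at 2 hpf (0.13), and ELL had 44.8 RPKM at 4 hpf and 18.3 RPKM at 2 hpf (0.58). Both ELL proteins speed elongation by limiting pauses of the polymerase. The median over the 7 entries was 0.20, but its sign was negative with a pseudocount of 0.1 and under 3 of the 4 scalings.

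P-TEFb, the kinase that releases paused polymerase, lay close to other genes. Its kinase CDK9 had 14.6 RPKM in the 4 hpf table and 7.81 RPKM in the 2 hpf table (0.16). The cyclin CCNT1 had 18.6 RPKM at 4 hpf and 10.4 RPKM at 2 hpf (0.12). CCNT2 had 39.0 RPKM at 4 hpf and 20.6 RPKM at 2 hpf on ENSDARG00000036510 (0.22), and 10.03 RPKM at 4 hpf and 9.06 RPKM at 2 hpf on ENSDARG00000036685 (-0.53). CTR9, a scaffold of the PAF1 complex and the only gene of that complex among the members, had 11.7 RPKM at 4 hpf and 6.59 RPKM at 2 hpf (0.08).

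The 5 SUPT genes differed among themselves. SUPT16H, a subunit of the histone chaperone FACT, had 32.6 RPKM in the 4 hpf table and 44.2 RPKM in the 2 hpf table (-1.09), the only one 2-fold below the all-gene median. This was 20% of the 5, against 21.2% of all genes. SUPT6H, a histone chaperone that moves with the polymerase, was level at 24.02 RPKM at 4 hpf and 23.8 RPKM at 2 hpf (-0.65). SUPT5H, the large subunit of the pausing factor DSIF, had 14.9 RPKM at 4 hpf and 7.21 RPKM at 2 hpf (0.29). Of the SAGA subunits, SUPT20H had 12.0 RPKM at 4 hpf and 4.21 RPKM at 2 hpf (0.66) and SUPT7L had 2.66 RPKM at 4 hpf and 2.13 RPKM at 2 hpf (-0.44).

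Other genes of Pol II transcription that the symbol patterns leave out were listed with earlier results of these data known. The list held 67 symbols, to which 47 IDs matched. DROSHA (relative difference 0.96), a gene of microRNA processing, is counted among them. Of 46 at 1 RPKM or more, 5 stood 2-fold over the all-gene median (10.9%, against 7.85% of all genes) and 1 lay 2-fold below (2.17%, against 21.2%). They had a median relative difference of 0.12, the same as the 0.12 over the members. The highest levels were those of SPTY2D1, a histone chaperone gene, at 173 RPKM in the 4 hpf table and 38.6 RPKM in the 2 hpf table (1.47), and RTF1, at 107 RPKM at 4 hpf and 53.3 RPKM at 2 hpf (0.33). BTAF1, which removes TBP from DNA, had 33.3 RPKM at 4 hpf and 7.24 RPKM at 2 hpf (1.40). NELFA, a subunit of the pausing factor NELF, had 32.5 RPKM at 4 hpf and 8.83 RPKM at 2 hpf (1.11), whereas its partner NELFE had 31.9 RPKM at 4 hpf and 19.7 RPKM at 2 hpf (0.01).

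ICE1 and ICE2 belong to the little elongation complex, which shares ELL with the super elongation complex. The entry ice1 had 6.06 RPKM in the 4 hpf table and 1.18 RPKM in the 2 hpf table (1.03), and ICE2 had 12.1 RPKM at 4 hpf and 2.62 RPKM at 2 hpf (1.20). TBP, the TATA-binding protein, had 11.4 RPKM at 4 hpf and 9.85 RPKM at 2 hpf (-0.47). TBPL2, a relative of TBP that acts in oocytes, had 4.00 RPKM at 4 hpf and 1.27 RPKM at 2 hpf (0.47). The TFIIH helicase genes ERCC2 and ERCC3 had 7.50 and 8.22 RPKM in the 4 hpf table, against 3.90 and 2.47 RPKM in the 2 hpf table. The lowest relative differences among those at 5 RPKM or more were those of DRAP1, a repressor of basal transcription, with 24.9 RPKM at 4 hpf and 27.1 RPKM at 2 hpf (-0.78), and PCF11, a termination factor, with 30.7 RPKM at 4 hpf and 32.7 RPKM at 2 hpf (-0.75).

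The other nuclear polymerases were set beside Pol II. Over 11 Pol II subunits the median relative difference was -0.62, and over 7 RNA polymerase I subunits it was -0.01. Over 18 subunits and factors of RNA polymerase III it was 0.25, with no test between them. These sets are unlike. The polymerase III set includes BRF and GTF3 factors, while the GTF2 factors (median 0.11) are left out of the Pol II set. The 5 entries shared by all these polymerases are counted under Pol II alone, and without them the 6 Pol II-specific entries had a median of -0.35 and none 2-fold below. Of the polymerase I genes none lay 2-fold from the median, and POLR1F was the highest at 66.5 RPKM in the 4 hpf table and 24.5 RPKM in the 2 hpf table. Of the polymerase III genes 2 lay 2-fold below (11.1%, against 21.2% of all genes), the paralogs polr3gla and polr3glb. The entry polr3gla had 1.298 RPKM at 4 hpf and 27.8 RPKM at 2 hpf, and polr3glb had 0.294 RPKM at 4 hpf and 1.62 RPKM at 2 hpf. Their relative polr3g had 5.17 RPKM at 4 hpf and 2.15 RPKM at 2 hpf (0.31).

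Direction against other genes held across settings for some roles and not for others. Pol II subunits had a negative median and TAFs and Integrator a positive one under all 9 settings plotted. This agreement was in part fixed in advance, as scaling by a constant factor largely cancels in a relative difference. The SUPT genes had a negative median in all but the setting without a filter. Of the 20 members 2-fold from the all-gene median, MLLT1, POLR2K and POLR2L remained so under all 10 settings tried on single genes. TAF1L came within 2-fold under 6 of the 10, INTS2 and MLLT3 under 5 and both MED13 entries under 4 each. GTF2IRD1, MED25, GTF2H2C, MED1, MED22 and MED9 have values under 9 settings, as a filter of 5 RPKM leaves them out, and GTF2IRD1 and MED25 came within 2-fold under 5 of these. The others came within it under 1 to 3, among which a pseudocount of 5 always stood.

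**Figure D4:**
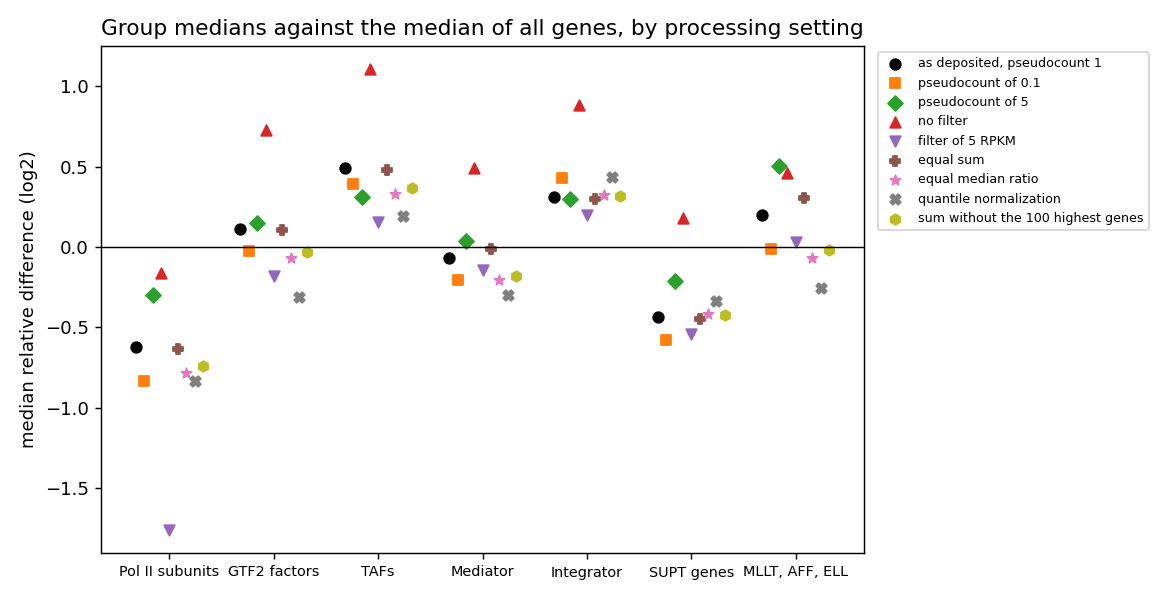
Median relative difference (log2, table labelled 4 hpf minus table labelled 2 hpf, less the all-gene median under the same setting) of 7 role groups as deposited (black) and under 8 alternative pseudocounts, filters and scalings. With RPKM as deposited the Pol II subunits lie at -0.62, the TAFs at 0.49 and Integrator at 0.31, and no setting moves these 3 groups across 0. Scalings by a constant factor largely cancel in this measure.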

How the data were processed

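RNA from anti-FLAG precipitates, per the labels' protocols, was sequenced by the authors and deposited as RPKM, in 1 table per age with no header. That a value is a mean over replicates is taken from the tables' names, as is the unit. Among values of 7 significant digits, 10695 of 11513 in the 4 hpf table and 11207 of 12095 in the 2 hpf table ended in 5. The submitters' processing notes name the genome build Zv9, the aligners TopHat2 2.1.1 and Bowtie, the trimmers Trimmomatic 0.36 and cutadapt 1.13, and bedtools 2.16.2 and MACS2 2.0.10. The part each tool played, the annotation and the read total behind the RPKM are not given there. Library depth is unknown, so no counting interval was computed. Without that read total, an effect of the few very high entries on the RPKM of other genes was not tested.

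A reference table named 20039 of 27205 gene IDs. Symbols are printed as it gives them, and 6 of them sit on 12 of the matched IDs. A gene listed in 1 table was taken as 0 in the other. Differences were computed in Python 3.11.15 (pandas 2.3.3) as log2(RPKM + 1) for genes that reached 1 RPKM in at least 1 table. The calculation was checked on simulated data built from genes at 5 RPKM or more in the 2 hpf table. That check does not cover genes at lower levels. The members and lists were chosen with earlier results of these data known. Values were given for the highest members and the widest differences of each role, all members at 50 RPKM or more and others by role. Sequences, positions and gene lengths were not used here. The alternatives were other pseudocounts, filters, scalings, a 4-fold threshold and other ways to match members.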

Additional observations from a re-analysis of the deposited data

How the results depend on the processing

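No paired analysis was possible because the tables hold means without replicate values, which also kept replicates from being left out in turn. Unknown depth and the missing replicate spread limit every value. As deposited, 31 members were 2-fold higher and 4 lower in the table labelled 4 hpf, 8 and 12 lay 2-fold above and below the all-gene median, and the median difference was 0.78 (0.12 relative). The first pair of counts became 15 and 0 with a pseudocount of 5, 53 and 1 with equal sums, 1 and 14 with equal median ratios, 7 and 9 with quantile normalization, 6 and 12 without the 100 highest genes in the sum, and 1 and 0 at a 4-fold threshold. The all-gene median also moved, from 0.66 to 0.32 with a pseudocount of 5, 0.96 with equal sums and -0.08 with equal median ratios. It was 0.22 with quantile normalization and 0.07 without the 100 highest genes. Whether these shifts in count differ from those of other genes was not tested. The second pair became 3 and 2 with a pseudocount of 5, 29 and 4 without a filter, and 1 and 1 at 4-fold. The count 2-fold above the median was 1 with a filter of 5 RPKM, 3 with equal median ratios, 3 with quantile normalization and 4 without the 100 highest genes. All-gene shares under these settings were not computed for either pair. The median difference was 0.46 with a pseudocount of 5, 1.103 with equal sums, -0.15 with equal median ratios, 0.046 with quantile normalization and 0.044 without the 100 highest genes. Relative to all genes it was 0.71 without a filter, -0.14 with a filter of 5 RPKM and -0.17 with quantile normalization. Members at 5 RPKM in both tables numbered 39, against 86 at 1 RPKM.

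Of the 20 members beyond 2-fold, none changed sign under the settings run. Scalings by a constant factor largely cancel in a relative difference and could hardly change a sign. MLLT1 (2.04 to 3.02), POLR2K (-2.48 to -1.25) and POLR2L (-2.29 to -1.05) stayed beyond 2-fold under all 10 settings tried on single genes. Of the others, 7 above and 10 below came within 2-fold under at least 1. Matching through older symbols added no gene. The settings that centre on genes with a symbol or leave out the higher MLLT1 entry were chosen after the data were seen, and without that entry the median was 0.77 (0.11 relative).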
